A study of Mus musculus with 6 samples.

Results

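The integrated stress response was followed here through 9 genes: Atf4, Ddit3, Atf3, Cebpb, Trib3, Chac1, Sesn2, Ppp1r15a and Gdf15. Each is the row of the expression table that carries its symbol. The table holds 38087 genes, of which 18899 were above 0 in at least 3 libraries and entered the test, and all 9 genes were among them. The genes were selected on the pathway and on the RvD1 minus untreated difference of the same values, in which Gdf15 was lower and Trib3 higher, so their differences between the groups are given as a description with standard errors and intervals and without p-values.

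The libraries came from mouse bone marrow-derived macrophages, which are grown by culturing marrow with the growth factor M-CSF. The treated group, 3 libraries, was macrophages exposed to 10 nM resolvin D1 (RvD1) for 6 h, and the other group was 3 libraries of untreated macrophages. RvD1 is a lipid made from an omega-3 fatty acid, and its receptor in myeloid cells, ALX/FPR2, stands in the title of the study together with limb ischemia. Both groups shared the C57BL/6J strain, male sex, 7 days of differentiation with 10 ng/ml M-CSF and 24 h of re-plating without it. The animals were 8 to 10 weeks old by the protocol and 2 to 4 months old by the sample label. No vehicle is named for the untreated cells. Whether replicates are different mice, different dishes or repeat libraries is not stated, so the spread between them may be technical.

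The integrated stress response begins when 1 of several kinases, PERK, GCN2, PKR or HRI, phosphorylates the translation factor eIF2. Bulk protein synthesis then slows while the mRNA of ATF4, a basic leucine zipper transcription factor, is translated more, and ATF4 turns on genes for amino acid supply, redox control and, with its partners, cell death. The response is engaged by endoplasmic reticulum load, amino acid shortage, heme shortage or viral RNA, and macrophages show it during infection and cholesterol loading. Poly-A RNA sequencing records neither eIF2 phosphorylation nor ATF4 protein.

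ATF4 and its C/EBP partners bind a composite element, searched here as TGATGNAA on both strands of the RefSeq promoter windows (250 bases before to 50 bases after a start, GRCm38.p6). All 9 genes had a window, Gdf15 had a pair of them, and the element was found in those of Trib3, Chac1 and Atf3, 3 of 9 genes, against 4.5% of all 27025 symbols. The matching letters are shown in capitals, 5′ to 3′ on the strand of the gene, together with the window of the upstream Gdf15 start, which holds no match and is shown because Gdf15 was the 1 of the 9 genes that was lower in every RvD1 library.
Trib3: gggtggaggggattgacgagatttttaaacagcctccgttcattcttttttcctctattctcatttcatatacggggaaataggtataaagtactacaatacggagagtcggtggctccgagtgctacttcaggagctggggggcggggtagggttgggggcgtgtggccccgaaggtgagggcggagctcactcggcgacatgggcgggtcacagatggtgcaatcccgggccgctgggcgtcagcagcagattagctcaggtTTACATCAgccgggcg
Chac1: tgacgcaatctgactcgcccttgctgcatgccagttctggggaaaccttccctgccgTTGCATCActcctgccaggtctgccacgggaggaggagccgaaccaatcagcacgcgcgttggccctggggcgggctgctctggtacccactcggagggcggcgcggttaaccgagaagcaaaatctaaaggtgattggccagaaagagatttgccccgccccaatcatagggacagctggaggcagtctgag
Atf3: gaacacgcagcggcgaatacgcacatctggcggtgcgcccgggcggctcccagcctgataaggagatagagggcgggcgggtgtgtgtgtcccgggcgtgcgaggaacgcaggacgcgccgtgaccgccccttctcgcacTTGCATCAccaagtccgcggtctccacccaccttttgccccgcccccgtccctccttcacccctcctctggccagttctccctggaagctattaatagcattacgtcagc
Gdf15: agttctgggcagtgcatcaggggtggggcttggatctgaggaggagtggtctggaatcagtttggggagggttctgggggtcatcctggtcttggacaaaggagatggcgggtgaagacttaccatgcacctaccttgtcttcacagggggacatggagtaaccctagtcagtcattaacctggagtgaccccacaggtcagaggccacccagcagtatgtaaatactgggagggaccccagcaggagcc
The Trib3 stretch is chr2:152344031-152344310 on the minus strand, and its match, TTACATCA, lies 15 to 22 bases into the RefSeq transcript. The Chac1 stretch is chr2:119350992-119351241 on the plus strand, with TTGCATCA at bases -193 to -186. The Atf3 stretch is chr1:191183334-191183583 on the minus strand, with TTGCATCA at bases -110 to -103 from a start that lies inside the longer GENCODE gene model. The Gdf15 stretch is chr8:70632457-70632706 on the minus strand. Trib3 and Chac1, whose RNA was higher with RvD1, and Atf3, whose groups overlapped, thus all matched this element. The ATF/CREB octamer TGACGTCA, found in 2.0% of symbols, was present for Ppp1r15a alone among the 9, and the short CCAAT box, found in 41.1% of symbols, for 6 of them. The antioxidant element TGACNNNGC, found in 14.0% of symbols, was present for Cebpb, Ppp1r15a and Sesn2. A match is a description of the letters and not a shown binding site.

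With RvD1, the RNA of 6 of the 9 genes was higher in all 3 treated libraries than in any untreated library, that of Gdf15 was lower in all 3, and those of Atf3 and Cebpb overlapped between the groups. Over all tested genes the groups did not overlap for 25.4%, with 12.6% higher and 12.8% lower. By the limma test at an adjusted p under 0.05, 2 of the 9 passed, Trib3 above and Gdf15 below untreated cells, where 1.12% of all tested genes passed, 0.561% higher and 0.556% lower. These counts describe genes that the same contrast had selected, and nothing further is read from them. Both calls held without RvD1 replicate 1. Without any 1 of the other 5 libraries 0 of the 9 passed (limma), and 0 to 5 genes of the whole table did. In those 5 fits 6 or 7 of the 9, and 13.9% to 18.2% of all tested genes, had an unadjusted p under 0.05, which for genes selected on this contrast is again a description.

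**Figure D1:**
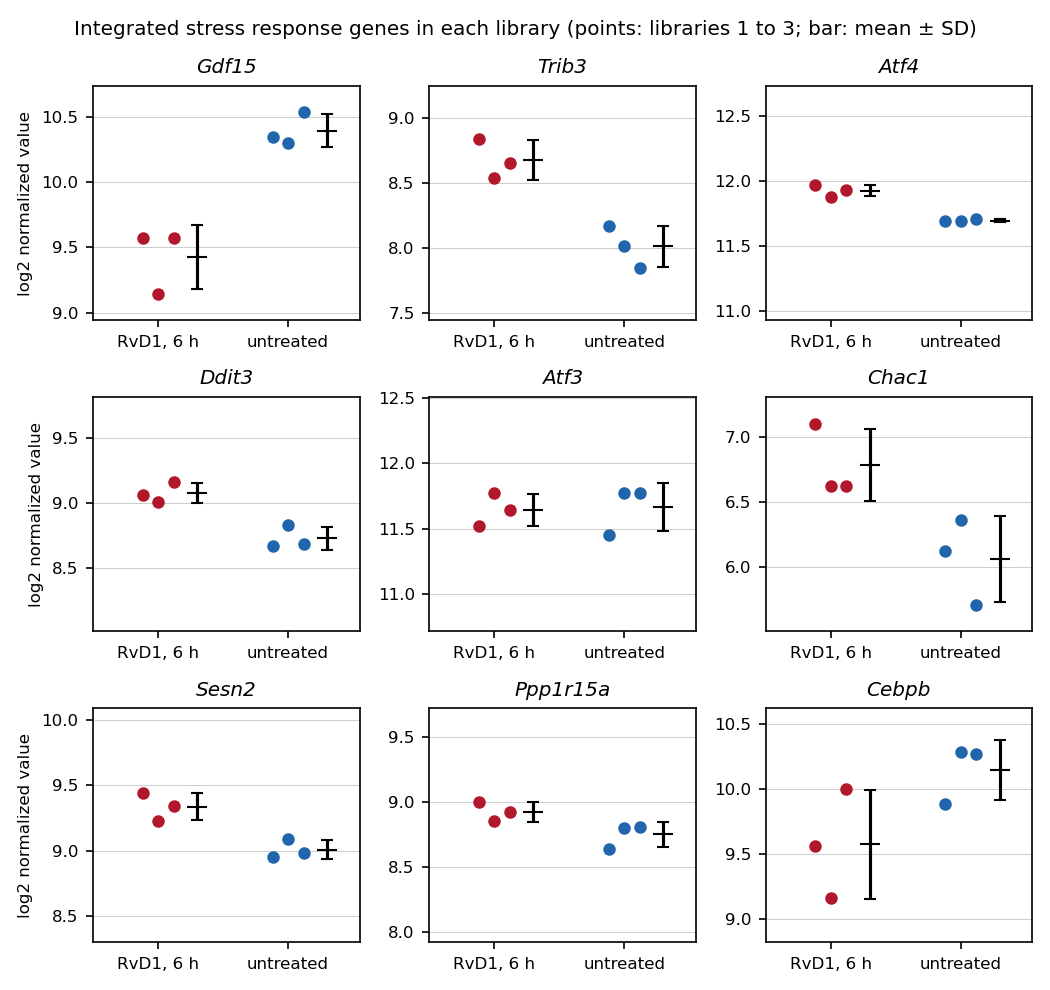
Log2 normalized value (vertical axis, each panel spanning the same number of log2 units) of the 9 genes in the 3 RvD1 libraries (red, left) and the 3 untreated libraries (blue, right), with the mean and SD beside the points. Gdf15 lies between 9.14 and 9.57 with RvD1 and between 10.30 and 10.54 untreated, while the Atf3 points of both groups cover the same range.

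The values are log2 normalized read numbers as deposited, so a difference of 1 is a doubling. Atf4 (ENSMUSG00000042406, chr15:80255184-80257541, plus strand, protein-coding, mm10), the transcription factor at the centre of the response, stood at 11.97, 11.88 and 11.93 in RvD1 replicates 1, 2 and 3, against 11.69, 11.69 and 11.71 in untreated replicates 1, 2 and 3. The groups did not overlap, and the untreated libraries lay within hundredths of each other. The mean was 11.93 ± 0.04 with RvD1 and 11.70 ± 0.01 untreated (SD, n = 3 each), a log2 fold change of 0.23 (SE 0.05), or 1.18-fold with a 95% interval of 1.09 to 1.27.

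Ddit3 encodes CHOP, a C/EBP-family factor induced by ATF4 that promotes cell death under lasting stress (chr10:127290774-127296288, plus strand, mm10). It measured 9.06, 9.01 and 9.16 with RvD1, against 8.67, 8.83 and 8.69 untreated. Every treated library was above every untreated one, with the closest pair being RvD1 replicate 2 and untreated replicate 2. The log2 fold change was 0.34 (SE 0.07), 1.27-fold (95% interval 1.13 to 1.42). Of its 1713 exonic bases, 105 overlap a second Ddit3 model on the same strand, 68 overlap Mars and 13 overlap Gm4189 on the opposite strand. The library kit is not stated to keep strand, and how reads in these bases were counted was not tested.

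Atf3, a stress-inducible repressor and activator that ATF4 and other pathways turn on (chr1:191170296-191218039, minus strand, mm10), measured 11.52, 11.77 and 11.64 with RvD1, against 11.45, 11.77 and 11.77 untreated. The ranges lay on top of each other. The log2 fold change was -0.02 (SE 0.10), and its 95% interval ran from -0.25 to 0.21, so changes within that range were not excluded. Cebpb, a C/EBP factor that pairs with ATF4 and CHOP and drives much of macrophage gene expression (chr2:167688915-167690418, plus strand, mm10), measured 9.56, 9.16 and 10.00 with RvD1, against 9.88, 10.28 and 10.27 untreated. RvD1 replicate 3 was above untreated replicate 1, so the groups overlapped. Its mean of 9.57 ± 0.42 with RvD1 and 10.14 ± 0.23 untreated (SD, n = 3 each) gave a log2 fold change of -0.57 (SE 0.19), 0.673 of the untreated level. RvD1 replicate 2 was the lowest library, and without it the value was -0.36. Of the 1504 exonic bases of Cebpb, 312 overlap Tmem189 on the opposite strand.

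Trib3 encodes a pseudokinase that ATF4 and CHOP induce and that in turn restrains ATF4 activity and AKT signalling (ENSMUSG00000032715, chr2:152337422-152344032, minus strand, mm10). It measured 8.84, 8.54 and 8.65 with RvD1, against 8.17, 8.02 and 7.85 untreated. The lowest treated library stood clear of the highest untreated one. The mean was 8.68 ± 0.15 with RvD1 and 8.02 ± 0.16 untreated (SD, n = 3 each), a log2 fold change of 0.66 (SE 0.11), 1.58-fold with a 95% interval of 1.33 to 1.87.

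Chac1 encodes an enzyme that degrades glutathione and is a target of the ATF4, ATF3 and CHOP cascade (chr2:119351229-119354381, plus strand, mm10). It measured 7.10, 6.62 and 6.62 with RvD1, against 6.12, 6.36 and 5.71 untreated. It had the highest fold change of the 9, with a log2 value of 0.72 (SE 0.20), 1.65-fold, and also the widest 95% interval of those that were higher, 1.20 to 2.26. Untreated replicates 2 and 3 differed from each other by almost as much as the groups did. Sesn2, a stress-induced inhibitor of mTORC1 that senses leucine (chr4:132492032-132510501, minus strand, mm10), measured 9.44, 9.23 and 9.34 with RvD1, against 8.95, 9.09 and 8.98 untreated. The groups were apart, with a log2 fold change of 0.33 (SE 0.07), 1.26-fold (95% interval 1.12 to 1.42).

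Ppp1r15a encodes GADD34, the inducible subunit that brings protein phosphatase 1 to eIF2 and ends the response (chr7:45522916-45526268, minus strand, mm10). It measured 8.998, 8.847 and 8.918 with RvD1, against 8.636, 8.799 and 8.809 untreated. The groups did not overlap but almost touched, between RvD1 replicate 2 and untreated replicate 3. Its log2 fold change of 0.17 (SE 0.08) was the lowest of the 6 genes that were higher in every RvD1 library, and the 95% interval began at 0.00 and ended at 0.35.

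Gdf15 encodes a secreted relative of the TGF-beta family, induced by ATF4, CHOP and p53, that signals to the brainstem through the receptor GFRAL (ENSMUSG00000038508, chr8:70629393-70632456, minus strand, mm10). It measured 9.57, 9.14 and 9.57 with RvD1, against 10.35, 10.30 and 10.54 untreated. All treated libraries were below all untreated ones, and RvD1 replicate 2 was the lowest. The mean was 9.43 ± 0.25 with RvD1 and 10.40 ± 0.13 untreated (SD, n = 3 each), a log2 fold change of -0.97 (SE 0.12), which is 0.511 of the untreated level with a 95% interval of 0.422 to 0.618. Gfral was listed at 0 in all 6 libraries. In bulk RNA, fewer cells that make a transcript and less of it per cell cannot be told apart.

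**Figure D2:**
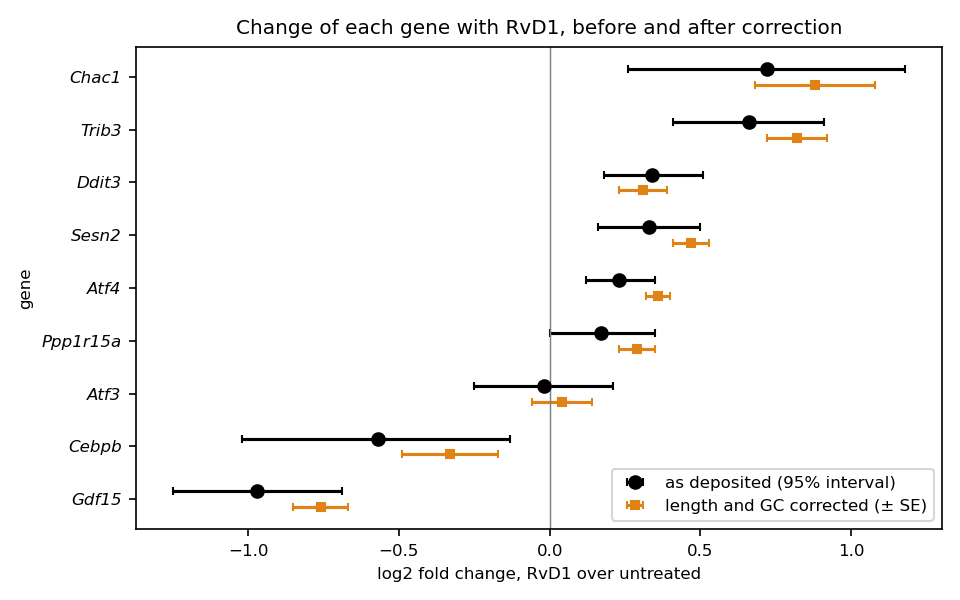
Log2 fold change of RvD1 over untreated (horizontal axis) for the 9 genes (vertical axis), ordered from Chac1 at 0.72 down to Gdf15 at -0.97. Black circles with 95% intervals are the values as deposited, and orange squares with standard errors those after each library was corrected for length and GC.

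The balance between members within a library needs no scaling between libraries, but it keeps any trend of a library with GC content. Gdf15 exceeded Trib3 by 0.73, 0.59 and 0.92 log2 units in RvD1 replicates 1, 2 and 3, against 2.17, 2.28 and 2.68 in untreated replicates 1, 2 and 3. This log2 ratio was lower in every treated library, 0.75 ± 0.16 with RvD1 and 2.38 ± 0.27 untreated (SD, n = 3 each), a difference of -1.63. Gdf15 was chosen as lower and Trib3 as higher, so the direction of this difference followed from the choice and is no separate result. Set against Atf4 of the same library, Trib3 was higher by 0.43, with means of -3.25 with RvD1 and -3.68 untreated, and Chac1 by 0.49, and the groups did not overlap for either ratio. The ratios of Ddit3, Sesn2 and Ppp1r15a to Atf4 differed between the groups by 0.11, 0.10 and -0.06, and each overlapped. The ratio of Cebpb to Atf4 did not overlap between the groups, although the Cebpb values themselves did, at -2.41, -2.73 and -1.93 with RvD1 against -1.81, -1.42 and -1.43 untreated. Atf4, the denominator, was itself among the genes chosen, and its higher value with RvD1 enters each of these ratios. Cebpb has 67.2% GC and Atf4 55.5%, and ratios after the length and GC correction were not computed. Nor was the share of such ratios that do not overlap over all genes, so their separation is a description only.

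Per kilobase of the longest transcript, the order of the levels shifted in the middle of the range. In RvD1 cells the log2 level per kilobase ran Atf4 10.92, Atf3 10.66, Ddit3 9.12, Cebpb 8.98, Gdf15 8.80, Trib3 7.66, Sesn2 7.54, Ppp1r15a 7.43 and Chac1 6.07. In untreated cells it ran Atf4 10.68, Atf3 10.67, Gdf15 9.77, Cebpb 9.55, Ddit3 8.78, Ppp1r15a 7.26, Sesn2 7.21, Trib3 with 6.84 to 7.16 over its libraries, and Chac1 5.35. Gdf15 was thus 5th in RvD1 cells and 3rd in untreated cells, and Trib3 6th in RvD1 cells and 8th in untreated cells. In RvD1 cells the ranges of Ddit3, Cebpb and Gdf15 overlapped in turn, as did those of Trib3, Sesn2 and Ppp1r15a. Among neighbours in the untreated order, Atf4 and Atf3, Gdf15 and Cebpb, Ppp1r15a and Sesn2, and Sesn2 and Trib3 had overlapping ranges.

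Fold changes in this series moved with transcript GC content, and 7 of the 9 genes have over 55% GC. Where tested genes averaged 5 or more on the log2 scale, the median log2 fold change was 0.05 over the 3513 genes with 45% to 50% GC, -0.13 over the 2322 with 55% to 60%, -0.20 over the 404 with 60% to 65% and -0.27 over the 46 with 65% or more. Gdf15 has 61.3% GC and Cebpb 67.2%, and both were below the median of their bin. Trib3 with 58.2%, Chac1 with 57.4% and Sesn2 with 58.7% lay on the other side, in bins whose median was below 0. Slopes against log2 transcript length differed between the groups, at 0.025, 0.043 and 0.030 log2 units per SD in RvD1 replicates 1, 2 and 3. In untreated replicates 1, 2 and 3 they were -0.032, -0.024 and -0.042, and this difference cannot be told apart from treatment. RvD1 replicate 2 had the steepest slope against GC content, -0.111 log2 units per SD, against -0.015 and -0.037 in RvD1 replicates 1 and 3. The untreated libraries had 0.041 to 0.062. GC slopes were thus below 0 in every RvD1 library and above 0 in every untreated one, which likewise cannot be told apart from treatment. How much of a treatment difference a correction for these trends removes was not tested. RvD1 replicate 2 was also the lowest library for Gdf15 and Cebpb, and the part of the length and GC trends in their values was not tested beyond the correction given next.

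**Figure D3:**
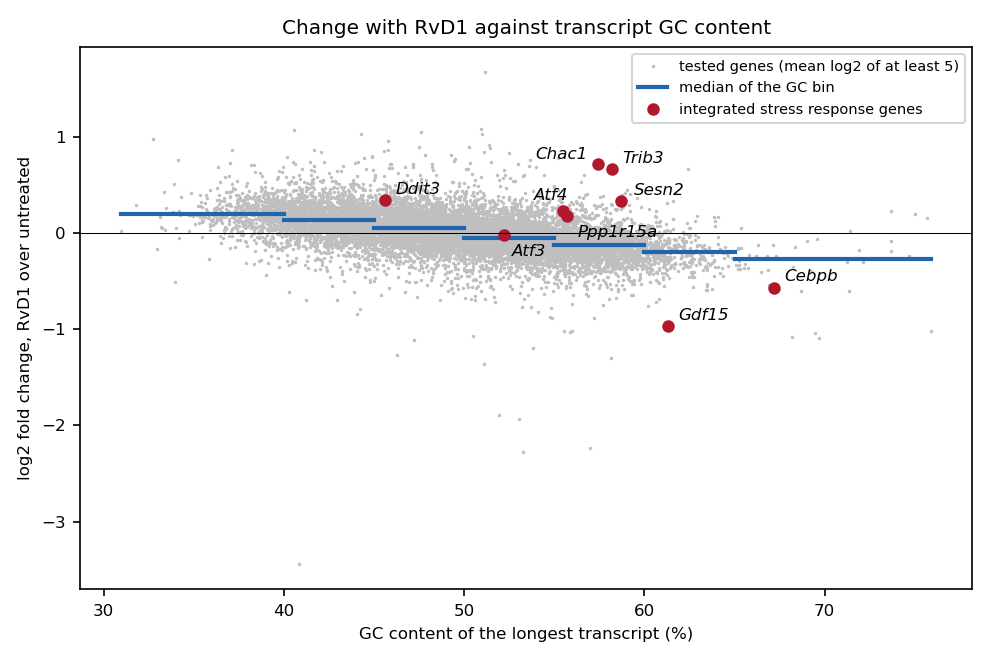
Log2 fold change of RvD1 over untreated (vertical axis) against GC content of the longest transcript in percent (horizontal axis) for tested genes averaging 5 or more on the log2 scale (grey), with the median of each GC bin (blue) and the 9 stress response genes (red). Bin medians fall to -0.27 at the GC-rich end, where Gdf15 and Cebpb lie below them and Trib3, Chac1 and Sesn2 lie above.

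After each library was corrected for length and GC content, Gdf15 had a log2 fold change of -0.76 (SE 0.09), with values of 9.62, 9.34 and 9.62 in RvD1 libraries against 10.27, 10.19 and 10.42 in untreated libraries. The groups stayed apart. The other corrected log2 fold changes were 0.82 for Trib3 (SE 0.10), 0.88 for Chac1 (SE 0.20), 0.47 for Sesn2 (SE 0.06), 0.36 for Atf4 (SE 0.04), 0.31 for Ddit3 (SE 0.08), 0.29 for Ppp1r15a (SE 0.06), 0.04 for Atf3 and -0.33 for Cebpb (SE 0.16). Those of Trib3, Chac1, Sesn2, Atf4 and Ppp1r15a were higher than as deposited, and those of Gdf15 and Cebpb nearer to 0. The same 7 genes had groups that did not overlap, as did 18.4% of the 18549 genes corrected, and Trib3, Sesn2, Gdf15 and Atf4 passed the limma test, as did 0.216% of them. The contrast that selected the genes is the same after the correction, so these counts too are a description.

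Markers of the labelled cell type were high in every library, with Lyz2 between 15.77 and 16.23 and Csf1r between 14.08 and 14.39, and the 9 macrophage markers found, of 10 listed, were all at 5 or more throughout. The antilogs of these macrophage markers summed to between 98000 and 125000 in RvD1 libraries and between 94600 and 123000 in untreated libraries. Transcripts of other cells were present too. The stromal gene Col1a1 was about as high as Csf1r, at 14.39, 13.83 and 14.06 with RvD1 and 14.30, 14.10 and 14.22 untreated. The antilogs of 9 stromal, endothelial and adipocyte markers summed to between 40000 and 62900 in RvD1 libraries and between 43000 and 51300 in untreated libraries, and those of 9 neutrophil markers to between 5430 and 14300 with RvD1 and between 4190 and 14700 untreated. RvD1 replicate 1, the highest library for Trib3, Chac1, Sesn2 and Atf4, was also highest for the endothelial genes Cdh5 at 9.12 and Pecam1 at 8.50, which stood between 7.26 and 8.00 and between 6.63 and 7.54 in the other 5 libraries. The same library was highest for the stromal genes Col3a1 at 13.37, Cxcl12 at 12.31 and Pdgfrb at 11.65. The part of these cells in the results was not tested. No marker gene passed the limma test, and the T cell genes Cd3e and Cd3g and the B cell genes Ms4a1 and Pax5 were listed at 0 in all libraries. Other genes of those lists were not at 0, with Cd4 at 5.85 to 7.24 in RvD1 libraries and 5.92 to 6.88 in untreated libraries, Trac above 0 in every library and at most 3.18, and Cd79b at 5.08 to 5.39 with RvD1 and 4.74 to 5.42 untreated. Estimated depth was 11.2 to 16.3 M reads in RvD1 libraries and 9.1 to 14.3 M in untreated libraries.

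The sensors and the translation machinery at the head of the response did not pass the test. Of 24 tested genes for eIF2 kinases, eIF2 and its exchange factor and phosphatases, 0 passed (limma; an unadjusted p under 0.05 was reached by 7 higher and 2 lower, and over all tested genes by 10.3% higher and 9.65% lower), with a median log2 fold change of 0.06 against 0.00 over all tested genes. The values of the kinases were 0.07 for Eif2ak1 (HRI), 0.30 for Eif2ak2 (PKR), -0.05 for Eif2ak3 (PERK) and -0.07 for Eif2ak4 (GCN2), and that of Eif2s1, the phosphorylated subunit of eIF2, was 0.18. The smallest p belonged to Ppp1r15b, the constitutive counterpart of Ppp1r15a, at 11.10 ± 0.03 with RvD1 and 10.82 ± 0.08 untreated (SD, n = 3 each). Its log2 fold change was 0.28 (SE 0.06, limma adjusted p = 0.0596). Once the libraries were corrected for length and GC, Ppp1r15b had 0.20 (limma adjusted p = 0.203) and the list median was -0.03. Corrected values were 0.02 for Eif2ak1, 0.17 for Eif2ak2, -0.06 for Eif2ak3, -0.13 for Eif2ak4 and 0.02 for Eif2s1.

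No gene of the metabolic arm of ATF4 passed. Of 25 genes for amino acid synthesis and transport 0 passed (limma; 3 higher and 0 lower unadjusted), with a median of -0.00. Asns, the asparagine synthetase that is a standard ATF4 target, had a log2 fold change of 0.18 (SE 0.09), and Got1, with the smallest p, 0.22 (limma adjusted p = 0.0766). Of 20 cytosolic aminoacyl-tRNA synthetases 0 passed (limma; 3 higher and 2 lower unadjusted), with a median of 0.09, and Eprs had the smallest p at 0.20 (limma adjusted p = 0.124).

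Among 30 other tested targets of ATF4 and CHOP, 2 rose and 28 did not pass (limma; 11 higher and 1 lower unadjusted), with a median of 0.19, or 0.15 after the length and GC correction. The genes that rose were Ero1l, an oxidase of the endoplasmic reticulum, by 0.52 (SE 0.07, limma adjusted p = 0.0314), and Vegfa, the growth factor for blood vessels, by 0.43 (SE 0.06, limma adjusted p = 0.0314). Both are also known as hypoxia-induced genes. After the correction Vegfa passed at 0.44 (limma adjusted p = 0.0350) and Ero1l, at 0.36, did not (limma adjusted p = 0.0608). Those that did not pass included Cebpg, a partner of ATF4, at 0.29 (limma adjusted p = 0.0533), the mTORC1 inhibitor Ddit4 at 0.26, the stress protein Nupr1 at 0.30 and the factor Atf5 at -0.13. Fgf21, another secreted hormone of the response, was listed at 0 in all 6 libraries.

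The relatives of the named genes included 1 that passed. Trib1, a paralog of Trib3 that directs C/EBP proteins to degradation, measured 8.95, 9.10 and 9.14 with RvD1, against 8.26, 8.41 and 8.46 untreated. The groups did not overlap, and the log2 fold change was 0.68 (SE 0.08), 1.60-fold with a 95% interval of 1.41 to 1.83 (limma adjusted p = 0.0237). It was 0.73 after the correction (limma adjusted p = 0.0280). The third paralog, Trib2, stood at 7.10 ± 0.24 with RvD1 and 6.71 ± 0.12 untreated (SD, n = 3 each), a log2 fold change of 0.39 that did not pass (limma adjusted p = 0.180). Sesn1 and Sesn3 had log2 fold changes of -0.07 and 0.16. Over the 23 tested relatives of Tribbles, sestrin and GDF15 the median was 0.16, and 0.06 after the correction, with 7 higher and 1 lower unadjusted.

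In the ATF, CREB and C/EBP family, 1 of 24 genes rose, Creb1, the cyclic AMP response factor, by 0.37 (limma adjusted p = 0.0387), with a family median of 0.07 and 5 higher and 1 lower unadjusted. After the correction Creb1 had 0.11 (limma adjusted p = 0.425). Cebpa and Cebpd, the C/EBP paralogs of Cebpb, had values of -0.20 and 0.13. In the ATF6 and XBP1 branches of the unfolded protein response, 1 of 29 genes fell, the chaperone component Sdf2l1 by 0.42 (limma adjusted p = 0.0386; -0.27 and 0.157 after the correction). The chaperone Hspa5 (BiP) had a value of -0.03 and Xbp1 one of -0.04, and the list median was 0.01, with 3 higher and 6 lower unadjusted.

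Gdf15 is also a target of p53, and of 23 tested p53 targets 1 rose and 1 fell (6 higher and 3 lower unadjusted), with a median of -0.04. Polk, a DNA repair polymerase, was higher by 0.56 (limma adjusted p = 0.0314) and Bax, a pore-forming killer protein, lower at -0.31 (limma adjusted p = 0.0372). Neither passed after the correction (0.40, limma adjusted p = 0.0791, and -0.08, limma adjusted p = 0.643). Cdkn1a (p21) and Mdm2, the best known targets, had values of 0.06 and 0.21. NRF2 is a factor that shares several target genes with ATF4. The list of its antioxidant targets holds 24 genes, among them Nfe2l2, which encodes NRF2 itself. Of these 24 genes 5 fell and 0 rose (limma), with 1 higher and 11 lower unadjusted. The median was -0.21, or -0.27 after the correction, while Nfe2l2 had 0.28. The lowest was the carbonyl reductase Cbr3 at -1.02 (limma adjusted p = 0.0217), followed in p by the thioredoxin reductase Txnrd1 at -0.59, the glutathione reductase Gsr at -0.41 and the sulfiredoxin Srxn1 at -0.69 (limma adjusted p = 0.0337, 0.0354 and 0.0386). Cbr3 and Txnrd1 also passed after the correction. Of 20 AP-1 and immediate early factors, only some of which can pair with Atf3, 1 rose, Fosl2 by 0.31 (limma adjusted p = 0.0386, and 0.0756 after the correction), with a median of -0.00 and 5 higher and 1 lower unadjusted. Over the 10 lists together 13 of 229 distinct genes passed, 6 higher and 7 lower, or 5.68%, against 1.12% of all tested genes. Lists were chosen with earlier results of these libraries known, so their shares are no independent evidence of a direction, and without any 1 library other than RvD1 replicate 1 between 0 and 5 genes of the whole table passed.

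**Figure D4:**
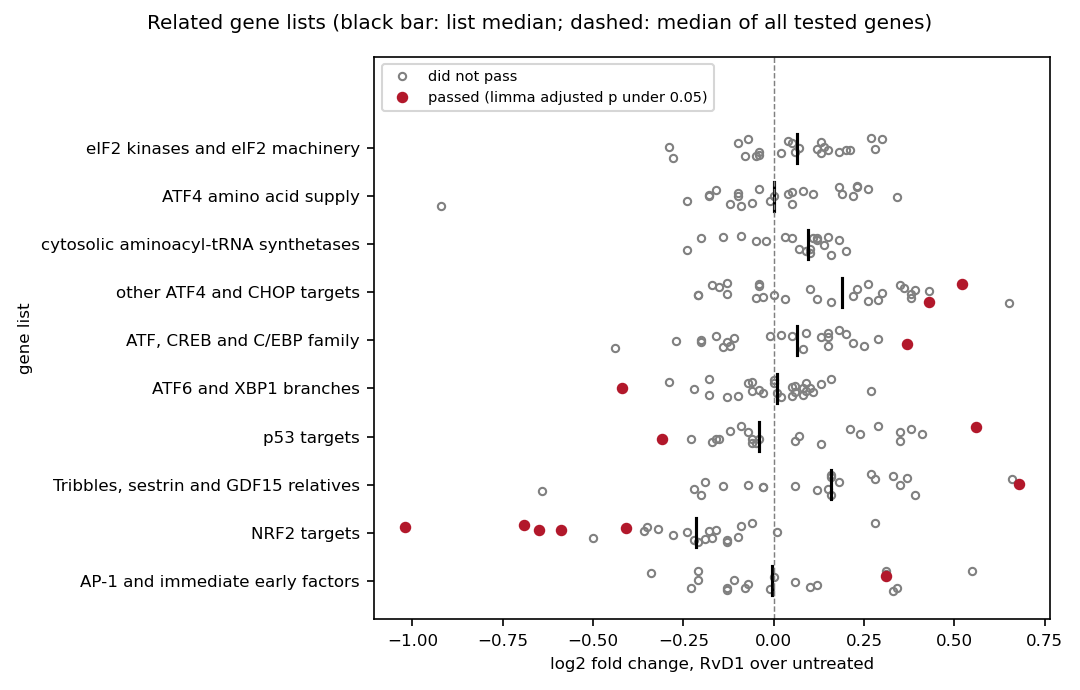
Log2 fold change of RvD1 over untreated (horizontal axis) for each tested gene of 10 related lists (rows), with the list median as a black bar and genes past the limma test in red. Medians lie between -0.21 for NRF2 targets and 0.19 for the other ATF4 and CHOP targets, against 0.00 over all tested genes.

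Across the 6 libraries, the genes whose centred profile was most alike were found among 10857 tested genes that averaged 5 or more, by root mean square difference. For Trib3 these were Ak4 (0.093 log2 units), Tmem45a (0.095), Sytl5 (0.105), Eya1 (0.107) and Csmd1 (0.108), against a spread of Trib3 itself of 0.354. Ak4, a mitochondrial adenylate kinase, measured 9.31, 9.13 and 9.05 with RvD1, against 8.49, 8.37 and 8.34 untreated. For Gdf15 they were Romo1 (0.197), Zfp771 (0.209), Cbr3 (0.210), Gtpbp6 (0.212) and Pif1 (0.213), against a spread of 0.511. None of them came as near to Gdf15 as the 5 nearest came to Trib3. Cbr3 was also the NRF2 target with the lowest value, at 7.13, 7.34 and 7.36 with RvD1, against 8.16, 8.37 and 8.36 untreated. Likeness over 6 libraries that share groups, depth and GC trend describes these values only.

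**Figure D5:**
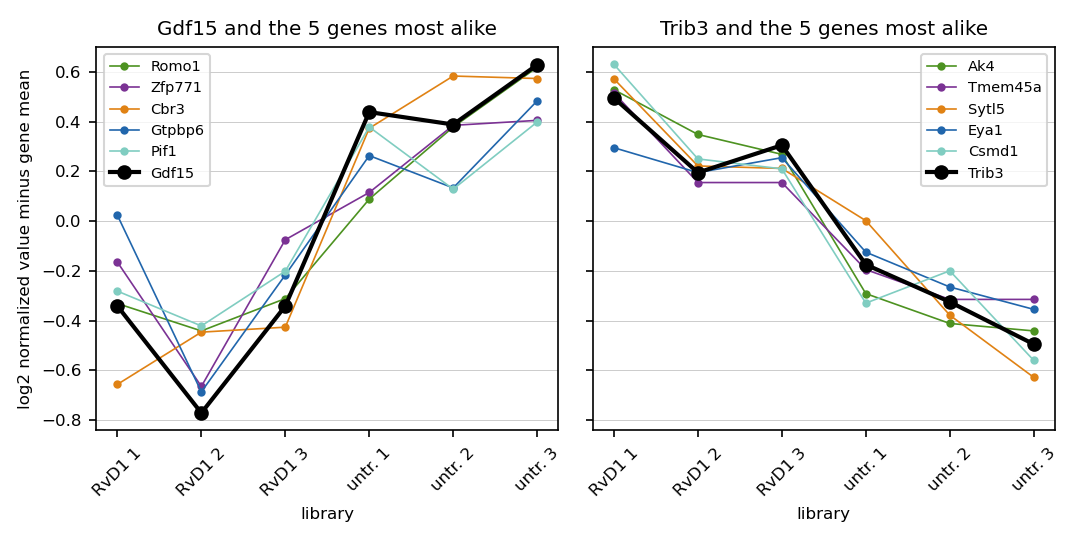
Log2 normalized value minus the mean of the gene (vertical axis) in the 3 RvD1 and the 3 untreated libraries (horizontal axis) for Gdf15 and its 5 most alike genes (left) and Trib3 and its 5 most alike genes (right). The lines around Trib3 lie closer to it, at 0.093 to 0.108 log2 units, than those around Gdf15, at 0.197 to 0.213.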

How the data were processed

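Poly-A RNA of 6 libraries, 3 with RvD1 and 3 untreated by the sample titles, was sequenced after preparation from 100 to 400 ng of total RNA, per the labels' protocols. TopHat2 2.0.7 and mm10 are named in the submitters' processing notes, and no source used here gives the counter or the normalization. A deposited table of the authors holds 38087 genes, with values headed as normalized and written with decimal commas, per the file headers. They were read as log2 values, since none was below 0, the highest was 17.4 and antilogs summed to 12.4 to 12.8 M in each library. Of the genes of a library, 49.6% to 51.6% were listed at 0, where a normalized read number of 1 or less ends up. Depth was estimated from the step that 1 read is worth. The strongest step among low values was taken as a fraction of a read and not as a whole one, so the depths rest on that choice. Only 35.9% to 53.0% of values up to 20 were whole within 0.02 reads, and no count test was run.

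limma 3.58.1 in R 4.3.3, with a mean-variance trend, was fitted to 18899 genes above 0 in at least 3 libraries, with treatment as the only term (4 residual and 4.62 prior degrees of freedom). Tests were two-sided, with Benjamini-Hochberg adjustment over all tested genes and a threshold of 0.05. Intervals are 95% and come from this fit. On simulated data of 18899 genes, 73 of 100 genes changed 1.5-fold and 97 of 100 changed 2-fold were recovered. All of these averaged 5 or more on the log2 scale, and 14 of 184 calls were of unchanged genes. The simulated noise was independent between genes, without the length and GC trends of the libraries. Recovery in the real libraries was thus not measured. Lengths, GC content and coordinates came from GENCODE M21, where 36308 identifiers (95.3%) matched. For the correction, the deviation of a library from the mean of each gene was fitted with splines (4 degrees of freedom) in log2 length and GC, and the fit was subtracted, over 18549 genes.

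The 9 genes and the lists were chosen with earlier results of these data known. Named genes were all 9 members, up to 4 genes per list past the test (otherwise the one with the smallest p), a set of pathway genes given as values, and the 5 genes most alike to Gdf15 and to Trib3, leaving out numbered gene models. Alternatives were a replicate block, other scalings, filters and pseudocounts, no trend, the correction and leaving out each library. Figures were drawn with matplotlib 3.10.9.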

Additional observations from a re-analysis of the deposited data

How the results depend on the processing

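Of 135 log2 fold changes of the 9 genes under 15 alternatives, 130 kept their sign, and the other 5 were of Atf3, which lies near 0. Much of this count was fixed in advance. The replicate block, the filters and the fit without a trend do not change a log2 fold change, and Gdf15 stayed at -0.97 in each. Leaving out 1 library cannot reverse the sign for genes whose groups do not overlap. Leaving out 1 library gave -1.04 to -0.82 for Gdf15, 0.58 to 0.74 for Trib3 and -0.78 to -0.36 for Cebpb. The length and GC correction moved Gdf15 to -0.76 and Trib3 to 0.82, with or without a replicate block.

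Counts of calls depended on the setting. Over all genes, 211 were called as reported, 12 with no filter on low values, 464 among genes averaging 5 or more (log2), 1 without the mean-variance trend (3113 at an unadjusted p under 0.05) and 40 after the correction. Leaving out 1 library gave 0 to 451 calls, with 2623 at an unadjusted p under 0.05 without RvD1 replicate 2. Of the 9 genes, 2 were called as reported, 0 with no filter and without the trend, 4 at the stricter filter (Trib3, Gdf15, Ddit3 and Atf4), 4 after the correction and 0 to 2 without 1 library. With no filter each list gave 0 except NRF2 targets with 1, and without the trend each gave 0. The stricter filter gave 1 in the eIF2 list, 2 each in the ATF, CREB and C/EBP, the ATF6 and XBP1 and the AP-1 lists, and 3 among relatives of Tribbles, sestrin and GDF15. Quantile normalization gave 2 in the AP-1 list. After the correction other ATF4 and CHOP targets gave 1, NRF2 targets 2, and the ATF, CREB and C/EBP, ATF6 and XBP1, p53 and AP-1 lists 0. Leaving out 1 library gave 0 to 5 NRF2 targets, 0 to 4 p53 targets, 0 to 3 other ATF4 and CHOP targets, 0 to 2 in the AP-1 and in the ATF, CREB and C/EBP lists, and 0 to 1 in the eIF2, tRNA synthetase, ATF6 and XBP1 and Tribbles lists, while amino acid supply stayed at 0. The cause was not tested.

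What a replicate number marks is not stated. Deviations of same-numbered libraries correlated at 0.30, -0.08 and 0.42 for numbers 1, 2 and 3 over 13176 genes, the 1 and 3 pairs being the highest of all 9 pairs, and S100a8 was highest in replicate 3 of both groups, at 11.14 with RvD1 and 11.02 untreated. RvD1 replicate 2 did not correlate best with its own number. Csf1r, however, ran 14.09, 14.24 and 14.39 in RvD1 replicates 1, 2 and 3 and 14.08, 14.26 and 14.38 in untreated replicates 1, 2 and 3. Lyz2 rose in the same order in both groups, while Mertk did not, at 9.97, 10.37 and 10.29 with RvD1 and 9.91, 10.15 and 10.16 untreated. Whether the numbers mark pairs was thus not settled, and the main fit left them unpaired. With a replicate block, 1896 genes were called, 7 of the 9 among them, and 775 and 6 with the block and the correction together. The block gave 4 calls in the eIF2 list, 5 in amino acid supply, 4 in tRNA synthetases, 11 in other ATF4 and CHOP targets, 3 in ATF, CREB and C/EBP, 6 in ATF6 and XBP1, 7 in p53, 5 in Tribbles relatives, 15 in NRF2 and 6 in AP-1. The block and correction together gave 1 in the eIF2 list, 5 in amino acid supply, 0 in tRNA synthetases and 7 in other ATF4 and CHOP targets. They gave 1 in ATF, CREB and C/EBP, 3 in ATF6 and XBP1 and 3 in p53. Tribbles relatives gave 4, NRF2 15 and AP-1 6. DESeq2 was not run, because the values are not counts. With 3 libraries a group and no read counts, the spread between libraries limits the precision: Chac1, the lowest of the 9, had the largest standard error, 0.20.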
